A study of Mus musculus with 8 samples.

Results

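The genes described here encode the cytosolic translation initiation and elongation factors of the mouse, in *Zeb1-/-* hematopoietic stem and progenitor cells that did or did not carry EpCAM on their surface. They were chosen by name: every protein-coding gene whose symbol starts with Eif or Eef and a digit, without the eIF2 alpha kinases and without Eif2s3y. The rule found 63 genes among 22046 protein-coding genes and 54532 genes in all, and 59 of the 63 had enough counts to be tested. RNA-seq was performed on LSK cells, which are bone marrow cells negative for lineage markers and positive for c-Kit and Sca-1, sorted into an EpCAM+ and an EpCAM- fraction with 4 libraries each. All 8 libraries came from C57BL/6 mice aged 8 to 12 weeks with the genotype *Zeb1* fl/fl;Mx1-Cre, and were sampled on day 14 after pIpC dosing ended. This interferon inducer switches on Mx1-Cre, which is active in blood cells and in other interferon-responsive tissues. Both fractions therefore shared the genotype and the treatment, no *Zeb1*-intact library enters any comparison here, and the comparison asks how EpCAM+ cells differed from EpCAM- cells. The labels did not state whether same-numbered libraries of the 2 fractions came from the same mouse.

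Initiation brings the first tRNA, the small ribosomal subunit and the capped mRNA together. The eIF2 complex carries the initiator tRNA and is recharged with GTP by eIF2B, eIF3 holds the small subunit, eIF4F binds the cap and unwinds the leader, and eIF5 and eIF5B lead to joining of the large subunit. In elongation eEF1A delivers each further tRNA, the other eEF1 subunits recharge eEF1A, eEF2 moves the ribosome along, and eIF5A relieves stalls. Blood stem cells are known for a low rate of protein synthesis compared with their more committed progeny.

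Total counts were 14114491 to 17073546 per library. The sorting gene *Epcam* averaged 187 CPM (counts scaled to a common library total after TMM, the usual depth-scaled unit) ± 32.7 (SD, n = 4) in EpCAM+ cells and 3.86 ± 3.61 (SD, n = 4) in EpCAM- cells. *Zeb1* was at 19.5 ± 3.75 and 11.9 ± 2.14 CPM (SD, n = 4), which was higher in EpCAM+ cells (log2 fold change 0.72, SE 0.17, adjusted p = 0.00798 by edgeR). Gene counts do not separate deleted from intact alleles, and the extent of deletion in either fraction was not tested. The fractions also differed in markers of other blood cells. Of the LSK markers, 8 of 10 were higher in EpCAM+ cells and none was lower, and their summed level was 2575 to 2756 CPM against 1455 to 2236 CPM in EpCAM- cells. *Ly6a*, which encodes Sca-1, averaged 41.3 ± 29.4 CPM (SD, n = 4) in the EpCAM- libraries and 201 ± 106 CPM in the EpCAM+ libraries. Summed erythroid markers were at 51.8 to 239 CPM in EpCAM+ and 1905 to 6626 CPM in EpCAM- libraries, with 5 of 8 tested lower and 1 higher (*Hbb-bt*). *Car1* gave most of the EpCAM- sum (mean 3443 CPM, against 65.4 in EpCAM+). Summed neutrophil markers were at 801 to 1357 and 9994 to 15767 CPM, with 2 of 7 lower (*Mpo* and *Elane*). *Mpo* gave most of these sums (means of 781 and 10435 CPM). The other tested neutrophil markers, *Ltf*, *Ngp*, *Camp*, *S100a8* and *S100a9*, did not pass. Mast cell markers were lower for 3 of 6, with sums of 267 to 292 and 403 to 690 CPM, and monocyte markers for 2 of 5, with sums of 84.1 to 416 and 216 to 840 CPM. Higher in EpCAM+ cells were 4 of 7 dendritic cell markers (sums of 170 to 816 and 228 to 313 CPM), 3 of 5 plasma cell markers (388 to 3975 and 171 to 259 CPM), 2 of 6 megakaryocyte markers (398 to 643 and 123 to 343 CPM), 2 of 3 B cell markers (71.6 to 120 and 46.3 to 78.9 CPM, with *Pax5* at 0 counts in all libraries) and the 1 tested T and NK cell marker (3.01 to 6.61 and 1.09 to 3.00 CPM). The upper end of the plasma cell sums came from EpCAM+ replicate 1, with 53916 *Jchain* counts against 3069 to 7671 in the other EpCAM+ libraries. DESeq2 called 1 of the 5 plasma cell markers higher, and edgeR with the replicate number as a block called 4. Of 10 proliferation genes 7 were lower in EpCAM+ cells, among them *Rrm2* and *Ccna2*, while *Mki67*, *Top2a* and *Pcna* did not pass. The sums over the 10 genes were 2710 to 3057 CPM in EpCAM+ and 3443 to 4062 CPM in EpCAM- libraries. These differences run along with every factor result that follows, and their part in those results was not tested. In bulk RNA, fewer cells of a type and less RNA per cell cannot be told apart.

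Most translation factor genes were lower in EpCAM+ cells. Of 59 tested, 45 were lower and 2 were higher at an adjusted p under 0.05 (edgeR quasi-likelihood test), and 12 did not pass. Over all 13560 tested genes, 20.8% were called lower and 21.8% higher. On the log2 scale their median fold change was -0.40, beside 0.02 over all tested genes. With the replicate number as a block, 46 were lower and 3 higher (24.7% and 25.6% of all genes), and by DESeq2 46 were lower and 2 higher (22.6% and 22.2% of all genes). Under upper-quartile scaling or library totals 36 were lower and 4 higher, with 2083 lower and 3642 higher of all genes under the first and 2066 and 3476 under the second. In 42 of the 59 the highest EpCAM+ library lay below the lowest EpCAM- library, and in 1 the order was the opposite, beside 20.0% and 20.1% of all tested genes. Between same-numbered libraries, 48 of the 59 were lower in EpCAM+ cells in all 4 pairs, which is 81.4%, against 30.6% of all tested genes. Leaving out 1 library at a time left 38 to 45 factors called lower and 1 to 3 called higher.

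**Figure D1:**
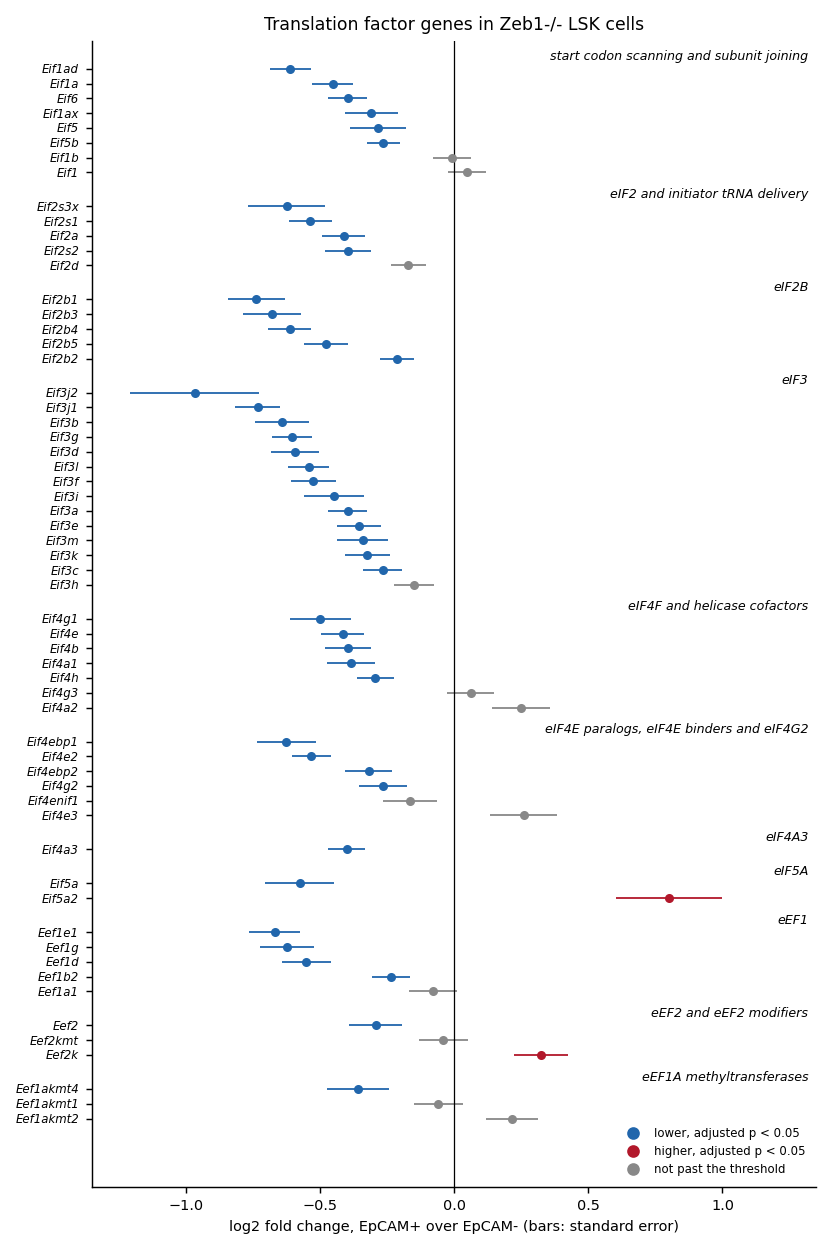
Log2 fold change of each of the 59 tested factor genes, EpCAM+ over EpCAM-, with its standard error on the horizontal axis and the genes grouped by complex on the vertical axis. Blue points are the 45 called lower, red points the 2 called higher and grey points the 12 that did not pass, and within eIF3 and eIF2B every point lies left of 0.

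Together the 63 genes made up 1.85%, 2.15%, 2.10% and 2.06% of all counts in EpCAM+ replicates 1 to 4 and 2.30%, 2.43%, 2.48% and 2.51% in EpCAM- replicates 1 to 4. The fractions did not overlap. The means were 2.04% ± 0.133 and 2.43% ± 0.0952 (SD, n = 4). No p is given for this share, because the genes were chosen with earlier results of these data known. A few genes gave much of this share, led by *Eef1a1* in all libraries but EpCAM- replicate 4. *Eef1a1* had 21.3% to 22.8% of factor counts in EpCAM+ and 17.5% to 19.0% in EpCAM- libraries. *Eif5a* had 12.7% to 16.2% in EpCAM+ and 16.1% to 18.1% in EpCAM- libraries. Per kilobase of gene model, *Eef1a1* was also the highest factor in both fractions, at 1758 CPM per kb in EpCAM+ and 1856 in EpCAM- cells, and *Eif5a* was next at 1227 and 1827. These levels rest on the gene lengths listed with the counts, and the deposited FPKM values imply other lengths, so the order of the 2 genes in EpCAM- cells is uncertain.

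The median of the 59 factors, taken within each library as log2 of CPM over the EpCAM- mean, was -0.41, -0.36, -0.36 and -0.36 in EpCAM+ replicates 1 to 4. It was -0.12, -0.01, 0.03 and 0.08 in EpCAM- replicates 1 to 4. EpCAM- replicate 1 was thus the library of its fraction nearest to the EpCAM+ libraries, and no fraction overlapped with the other.

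**Figure D2:**
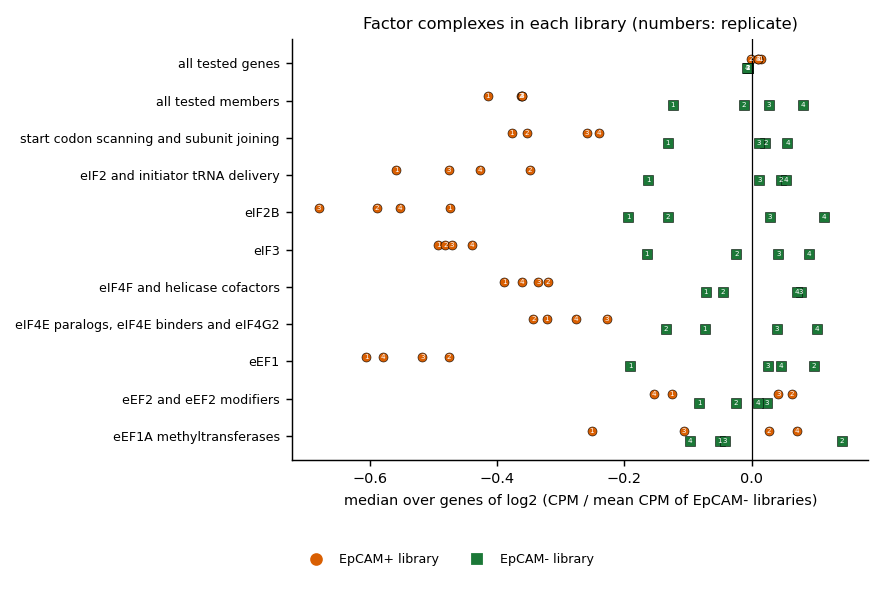
Median over genes of log2 (CPM over the mean CPM of the EpCAM- libraries) in each library on the horizontal axis, for all tested genes (with 0.1 CPM added to each level), all tested factors and 9 complexes. Circles are EpCAM+ and squares EpCAM- libraries with the replicate number inside. The fractions lie apart for the initiation complexes and the eEF1 group (with *Eef1e1*) but overlap for the eEF2 group and the eEF1A methyltransferases.

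Among genes of start codon scanning and subunit joining, 6 of 8 were lower, with a median log2 fold change of -0.30. *Eif1ad*, which encodes an eIF1A-like protein, was placed in this group by its name. It was at 122, 128, 122 and 133 CPM in EpCAM+ replicates 1 to 4. In EpCAM- replicates 1 to 4 it was at 175, 188, 190 and 216 CPM. Every EpCAM+ library was below every EpCAM- library (log2 fold change -0.61, SE 0.08, adjusted p = 0.000358). *Eif6*, which keeps the large subunit from joining too early, had a log2 fold change of -0.40 (SE 0.07), *Eif1a* of -0.45 (SE 0.08) and *Eif5b*, the GTPase of subunit joining, of -0.26 (SE 0.06). *Eif1ax* (-0.31) and *Eif5* (-0.28, the GTPase activator of eIF2) passed in the fit of all libraries, but their fractions overlapped and each was called in 3 of the 8 fits without 1 library. *Eif1* and *Eif1b*, which guard start codon choice, did not pass, with 1059 ± 50.5 and 1024 ± 27.1 CPM for *Eif1* (SD, n = 4) and 155 ± 6.59 and 156 ± 10.7 CPM for *Eif1b*. *Eif1a* and *Eif1ax* are near-identical copies, so the split of reads between them is uncertain.

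All 3 subunits of eIF2 were lower in EpCAM+ cells. *Eif2s1*, the alpha subunit that the stress kinases phosphorylate, was at 265, 288, 294 and 280 CPM in EpCAM+ replicates 1 to 4 and at 362, 448, 412 and 412 CPM in EpCAM- replicates 1 to 4 (log2 fold change -0.54, SE 0.08, adjusted p = 0.000736 by edgeR). The fractions did not overlap. *Eif2s2*, the beta subunit, had a log2 fold change of -0.40 (SE 0.09) and *Eif2s3x*, the gamma subunit, of -0.62 (SE 0.14). Reads of *Eif2s3x* can be shared with its copy on the Y chromosome, so its level is uncertain. *Eif2a* was also lower (-0.41, SE 0.08). *Eif2d*, at -0.17 (SE 0.06), did not pass (adjusted p = 0.0541 by edgeR), and passed with the replicate number as a block (adjusted p = 0.0424 by edgeR).

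eIF2B, the exchange factor of eIF2, was lower for all 5 subunits, with a median log2 fold change of -0.61. *Eif2b1*, the alpha subunit, was at 84.5, 87.8, 93.2 and 92.6 CPM in EpCAM+ replicates 1 to 4 and at 129, 136, 148 and 184 CPM in EpCAM- replicates 1 to 4. No EpCAM+ library reached the lowest EpCAM- library, and the EpCAM- mean was 1.67-fold higher (log2 fold change -0.74, SE 0.11, adjusted p = 0.000683 by edgeR). *Eif2b3* (-0.68, SE 0.11), *Eif2b4* (-0.61, SE 0.08) and the catalytic subunit *Eif2b5* (-0.48, SE 0.08) kept their calls without any 1 library. *Eif2b2* had the smallest difference of the complex (-0.21, SE 0.06) and was called in 5 of those 8 fits.

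eIF3, the scaffold on the small subunit, was lower for 13 of 14 genes, with log2 fold changes from -0.97 to -0.15 and a median of -0.49. *Eif3b*, a core subunit, was at 275, 291, 324 and 297 CPM in EpCAM+ replicates 1 to 4 and at 411, 409, 507 and 524 CPM in EpCAM- replicates 1 to 4 (log2 fold change -0.64, SE 0.10). *Eif3g* was at 311, 310, 317 and 315 CPM in EpCAM+ and at 424, 468, 499 and 514 CPM in EpCAM- replicates 1 to 4 (log2 fold change -0.60, SE 0.08). In both genes the fractions lay apart. *Eif3d* (-0.59), *Eif3l* (-0.54) and *Eif3f* (-0.52) followed. *Eif3j1* (-0.73, SE 0.08) and the low copy *Eif3j2* (-0.97, SE 0.24, 3.05 ± 0.997 against 5.97 ± 0.361 CPM, SD, n = 4) encode the loosely bound subunit that contacts the mRNA entry channel, and near-identical sequence makes the split between the copies uncertain. *Eif3h* was the 1 subunit that did not pass, at 204 ± 6.87 CPM in EpCAM+ and 226 ± 19.3 CPM in EpCAM- cells (SD, n = 4).

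The eIF4F complex showed a split between paralogs. *Eif4e*, the cap-binding subunit, was at 369, 410, 418 and 419 CPM in EpCAM+ replicates 1 to 4 and at 486, 534, 569 and 566 CPM in EpCAM- replicates 1 to 4. The fractions did not overlap (log2 fold change -0.42, SE 0.08, adjusted p = 0.00248 by edgeR). *Eif4a1*, the main helicase, was lower at -0.38 (SE 0.09), as were *Eif4g1*, the scaffold (-0.50, SE 0.11, with overlapping fractions), and the helicase cofactors *Eif4b* (-0.40, SE 0.09) and *Eif4h* (-0.29, SE 0.07). *Eif4a3*, the helicase of the exon junction complex, was lower too (-0.40, SE 0.07). *Eif4a2*, a helicase paralog, was at 152, 133, 143 and 113 CPM in EpCAM+ replicates 1 to 4 and at 119, 128, 109 and 98.9 CPM in EpCAM- replicates 1 to 4. These fractions overlapped and the difference did not pass (log2 fold change 0.25, SE 0.11, adjusted p = 0.0837 by edgeR), but it passed with the replicate number as a block (adjusted p = 0.0173 by edgeR). *Eif4a2* overlaps *Rfc4* on the opposite strand, and without a stated strand setting their reads cannot be told apart. *Eif4g3*, a scaffold paralog, had a log2 fold change of 0.06 (SE 0.09) and did not pass.

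Of the eIF4E paralogs, binders and *Eif4g2*, 4 of 6 were lower. *Eif4ebp1*, a repressor that competes with the scaffold for eIF4E, was at 134, 154, 157 and 154 CPM in EpCAM+ and at 192, 216, 241 and 275 CPM in EpCAM- replicates 1 to 4 (log2 fold change -0.63, SE 0.11). Its relative *Eif4ebp2* fell by less (-0.32, SE 0.09), and *Eif4e2*, a cap-binding paralog, had a log2 fold change of -0.53 (SE 0.07). *Eif4g2*, which lacks the eIF4E-binding part of the scaffold, passed (-0.26, SE 0.09) but with overlapping fractions, and was called in 1 of the 8 fits without 1 library. *Eif4e3* did not pass, at 58.0 ± 3.30 and 48.4 ± 8.92 CPM (SD, n = 4).

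**Figure D3:**
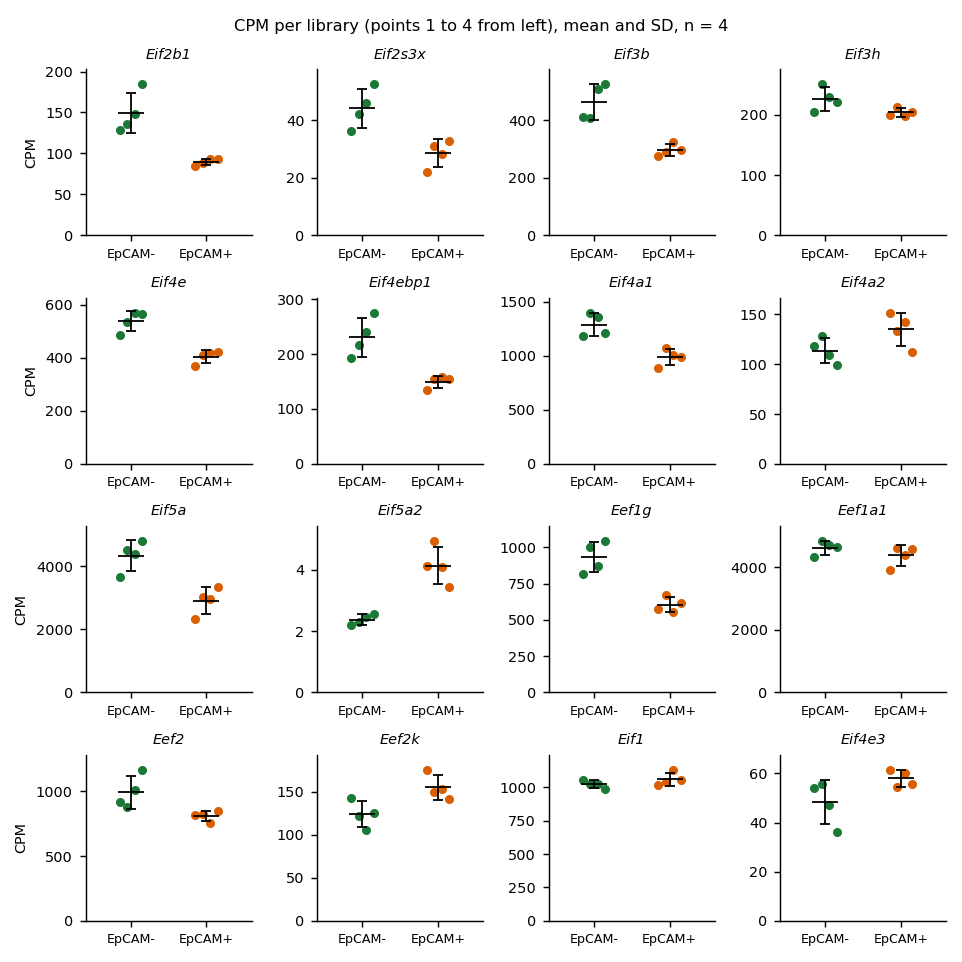
CPM of 16 factor genes in each library, with EpCAM- in green and EpCAM+ in orange, points from left to right for replicates 1 to 4, and bars for the mean and SD of 4 libraries on axes that start at 0. *Eif2b1*, *Eif3b*, *Eif4e*, *Eif5a* and *Eef1g* lie apart between fractions, *Eif5a2* lies apart in the opposite direction, and *Eif3h*, *Eif4a2*, *Eef1a1* and *Eif1* overlap.

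The pair of eIF5A genes moved in opposite directions. *Eif5a*, the common form, was at 2328, 3029, 2963 and 3343 CPM in EpCAM+ replicates 1 to 4 and at 3665, 4508, 4409 and 4794 CPM in EpCAM- replicates 1 to 4. All EpCAM+ libraries were lower (log2 fold change -0.58, SE 0.13, adjusted p = 0.00544 by edgeR). *Eif5a2* was at 4.12, 4.93, 4.08 and 3.44 CPM in EpCAM+ and at 2.18, 2.29, 2.46 and 2.57 CPM in EpCAM- replicates 1 to 4. All EpCAM+ libraries were higher, by 1.74-fold on the means (log2 fold change 0.80, SE 0.20, adjusted p = 0.00893 by edgeR), and no library left out ended the call. Both enzymes that make hypusine, the modified residue eIF5A needs, were lower: *Dohh* (-0.69, SE 0.10) and *Dhps* (-0.34, SE 0.08).

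In the eEF1 group, which also holds *Eef1e1*, 4 of the 5 genes tested were lower (median -0.55). *Eef1g*, a subunit of the exchange complex, was at 576, 670, 556 and 619 CPM in EpCAM+ and at 817, 999, 873 and 1041 CPM in EpCAM- replicates 1 to 4 (log2 fold change -0.62, SE 0.10). The exchange subunit *Eef1d* was at -0.55 (SE 0.09). *Eef1e1*, at -0.67 (SE 0.09), belongs to the tRNA synthetase complex and not to eEF1, but is part of the group's count and median. *Eef1b2* had a smaller difference (-0.24, SE 0.07) that was called in 4 of the 8 fits without 1 library. *Eef1a1*, the carrier that the exchange subunits recharge, was at 3909, 4637, 4388 and 4594 CPM in EpCAM+ replicates 1 to 4. In EpCAM- replicates 1 to 4 it was at 4326, 4833, 4709 and 4643 CPM. Its fractions overlapped and it did not pass (log2 fold change -0.08, SE 0.09, adjusted p = 0.507 by edgeR).

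*Eef2*, the translocase, was lower (811.6 ± 37.5 against 993 ± 128 CPM, SD, n = 4, log2 fold change -0.29, SE 0.10), and its inhibitory kinase *Eef2k* was higher (155 ± 14.4 against 124 ± 15.2 CPM, SD, n = 4, log2 fold change 0.32, SE 0.10). Each was called in 3 of the 8 fits without 1 library, and the *Eef2k* fractions overlapped. Under upper-quartile scaling or library totals *Eef2* did not pass. Of the eEF1A methyltransferases *Eef1akmt4* was lower (-0.36, SE 0.11, called in 3 of those 8 fits) and 2 did not pass. The 4 genes that could not be tested were *Eef1a2* and *Eif4e1b*, with no counts in any library, *Eif4ebp3*, with at most 1 count, and *Eef1akmt3*, with 1 count in each EpCAM- and 3 or 4 in each EpCAM+ library.

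Levels of some of these genes can hold reads of others. *Eif2a* overlaps *Serp1*, *Eif2b4* overlaps *Snx17*, *Eif2d* overlaps *Rassf5*, *Eif3j1* overlaps *Spg11*, *Eif5b* overlaps *Rev1*, *Eef1b2* overlaps *Ndufs1* and *Eef1akmt4* overlaps *Alg3* on the opposite strand, *Eef1akmt3* so overlaps *Mettl1*, and *Eef1d* overlaps *Naprt* on the same strand. *Eif4e3* overlaps *Gm20696* and *Eif4ebp3* overlaps *Ankhd1* on the same strand. *Eif1b* overlaps *D830035M03Rik* and *Eif3m* overlaps *Ccdc73* on the opposite strand. The processed pseudogene *Eif4a-ps4* held 1392 to 1921 counts per library, so the level of its parent family is uncertain too.

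By symbol, genes named Eif, without the eIF5A pair, were lower for 38 of 46 tested (median -0.40). Genes named Eef, with both eIF5A genes added, were lower for 7 and higher for 2 of 13 (median -0.24). These groups are not pure steps of translation. The Eef group also holds the eEF1A methyltransferases, *Eef2kmt*, *Eef1e1* and the kinase gene *Eef2k*, which was among the higher genes. The Eif group also holds *Eif4a3*, *Eif4ebp1*, *Eif4ebp2* and the eIF1A-like gene *Eif1ad*. The difference between the groups was not tested.

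Because paralogs of 1 library share its depth and scaling, ratios between them do not depend on the scaling of libraries. Of 14 pairs, 13 had enough counts, and 8 differed between fractions at an adjusted p of 0.0464 (exact two-sided permutation p = 0.0286 each, Benjamini-Hochberg over 13 pairs, 4 against 4). A p of 0.0286 is the smallest this permutation allows, so the 8 share 1 adjusted p. Their calls stand together and depend on how many of the listed pairs reached that p. Several pairs also share a gene. The log2 ratio of *Eif5a2* to *Eif5a* was higher in EpCAM+ cells by 1.36, from -10.81 ± 0.0949 to -9.45 ± 0.344 (SD, n = 4). *Eif4a2* to *Eif4a1* was higher by 0.63, with log2 ratios of -2.55, -3.00, -2.81 and -3.14 in EpCAM+ replicates 1 to 4 and of -3.32, -3.45, -3.64 and -3.62 in EpCAM- replicates 1 to 4. *Eif4g3* to *Eif4g1* was higher by 0.55, *Eif4g2* to *Eif4g1* by 0.23 and *Eif4e3* to *Eif4e* by 0.69. For the regulators, *Eef2k* to *Eef2* was higher by 0.61 and *Eif4ebp2* to *Eif4ebp1* by 0.30, whereas *Eif4ebp1* to *Eif4e* had a difference of -0.20. For each of these 8 ratios the fractions did not overlap, and all 4 same-numbered pairs of libraries had the same sign. This permutation takes the 8 libraries as unpaired, and an exact sign-flip test over the 4 pairs gives p = 0.125 for each, the smallest it allows. *Eif4e2* to *Eif4e* (-0.12), *Eif4ebp2* to *Eif4e* (0.10), *Eif1b* to *Eif1* (-0.05), *Eif1a* to *Eif1ax* (-0.14) and *Eif4h* to *Eif4b* (0.10) did not pass, although for *Eif4e2* to *Eif4e* and *Eif1a* to *Eif1ax* the ratio was lower in EpCAM+ cells in all 4 pairs (sign-flip p = 0.125 each, exact).

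**Figure D4:**
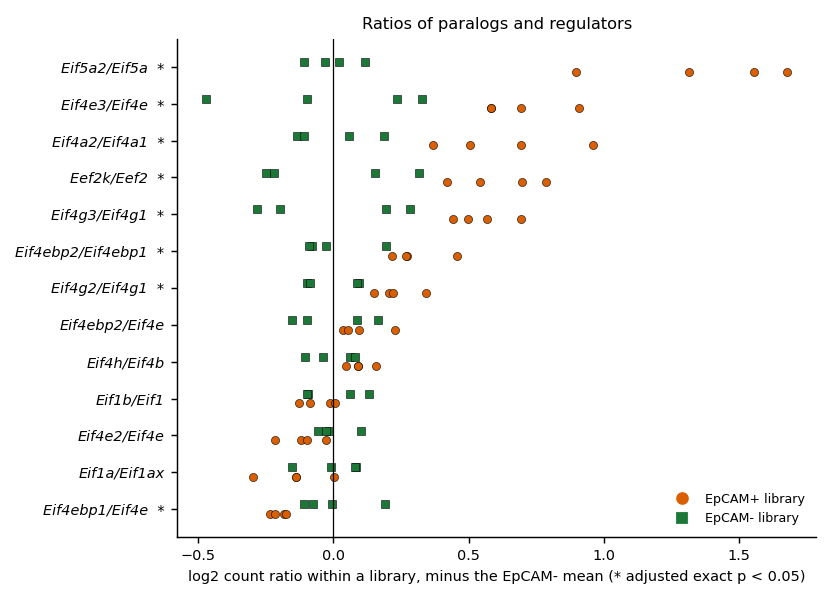
Log2 ratio of counts of the first gene to the second within each library, minus the EpCAM- mean, for 13 pairs, with circles for EpCAM+ and squares for EpCAM- libraries. The 8 pairs with a star passed, 7 of them higher and *Eif4ebp1* to *Eif4e* lower in EpCAM+ cells.

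Other genes of the pathway were counted from lists, beside 20.8% lower and 21.8% higher over all tested genes. No list was tested against these shares. Termination, recycling and rescue factors were lower for 5 of 11 (median -0.35), led by the release factor *Etf1* (-0.83, SE 0.08) and the recycling ATPase *Abce1* (-0.62, SE 0.08). Partners of the poly(A) tail and cap were lower for 8 and higher for 2 of 15, with the nuclear cap-binding gene *Ncbp1* at -0.54 (SE 0.08) and *Larp4* at -0.39 (SE 0.07). In mTORC1 and MNK signaling to eIF4F, 4 of 13 were lower and none higher (median -0.15). The share of lower genes was not far above that of all genes, and the share of higher genes was below that of all genes. Among the lower genes were the S6 kinase gene *Rps6kb1* (-0.27, SE 0.07) and *Akt1s1* (-0.25, SE 0.08). Among eIF2 alpha kinases and genes of the integrated stress response, 3 were lower and 3 higher of 13, near the shares of all genes in both directions. The asparagine synthetase gene *Asns* was at -2.27 (SE 0.33) and *Trib3* at 1.67 (SE 0.36), and both are known targets of ATF4. Diphthamide enzymes, which modify eEF2, were lower for 3 of 7, with *Dph1* at -0.45 (SE 0.15) and *Dph5* at -0.27 (SE 0.09). Mitochondrial translation factors were lower for 4 of 11, with *Tufm* at -0.61 (SE 0.07) and *Gfm1* at -0.70 (SE 0.10). Of 9 factor genes listed as TOP mRNAs, whose leaders open with a pyrimidine run that makes their translation follow mTORC1, 7 were lower and 2 did not pass (median -0.35). RefSeq start sequences matched 5 of the 9, and 1 of these (*Eif3f*) opened with C and at least 4 further pyrimidines. So did 2 of all 47 factors with a sequence. These are annotated starts, and the starts used in these cells were not measured, so a missing run is uncertain.

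Promoters of 47 factors matched the RefSeq table (GRCm38.p6, the build of the counts), with the first listed start of each gene. The 250 bases before the start were searched on both strands for 6 motifs, which were chosen with the expression results known, and no test was made. CACGTG, the E-box that Myc and its relatives bind, was in 10 of 47 factor promoters (21.3%), 8.55% of 9286 promoters of tested protein-coding genes and 6.05% of all 27025. It was in 7 of 35 promoters of lower factors, in 2 of 2 of higher factors and in 1 of 9 of factors that did not pass, so it was found in both directions. CAGGTG, an E-box that Zeb1 binds, was in 3 of 47 (6.38%) and in 14.9% of tested gene promoters. The ATF4 core TGATGNAAN was in 1 (2.13%, against 1.90%), the palindromic Nrf1 core in 1 (2.13%, against 1.70%), the ETS core CCGGAAGT in 3 (6.38%, against 6.41%) and the extended YY1 core in 0 (against 0.463%). Windows with CACGTG in capitals are shown for both higher genes (*Eif5a2* and *Eef2k*), for 2 genes that were lower (*Eef2*, the substrate of the kinase, and *Eif4a1*) and for a gene that did not pass (*Eif1b*). The searched promoter of *Eif5a* did not hold these letters.
Eif5a2, chr3:28781120-28781155, plus strand: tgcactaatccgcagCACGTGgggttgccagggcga
Eif5a2, chr3:28781145-28781180, plus strand: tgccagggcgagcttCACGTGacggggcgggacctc
Eef2k, chr7:120842785-120842820, plus strand: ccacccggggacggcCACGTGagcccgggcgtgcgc
Eef2, chr10:81176573-81176608, plus strand: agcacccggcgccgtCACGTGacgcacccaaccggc
Eif4a1, chr11:69672592-69672627, minus strand: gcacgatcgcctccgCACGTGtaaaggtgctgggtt
Eif1b, chr9:120492567-120492602, plus strand: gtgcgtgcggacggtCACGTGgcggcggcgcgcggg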

How the data were processed

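RNA was extracted with RNeasy kits, amplified with SMART-Seq v4, made into NEBNext Ultra libraries from 1 ng of cDNA and sequenced as paired 150-base reads. The deposited values used are raw counts per gene, which the authors made with STAR 2.6.1d on GRCm38.p6 and featureCounts 1.5.0-p3. The annotation release, the strand setting and the treatment of multiply mapped reads are not given in the sources used here, so reads of overlapping genes and near-identical copies are uncertain. The table also held FPKM values and the authors' DESeq2 1.20.0 fold changes and p-values, which were not used.

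Counts were fitted over all genes with edgeR 4.0.16 in R 4.3.3 (TMM scaling, filterByExpr, quasi-likelihood test of EpCAM+ against EpCAM-, two-sided, Benjamini-Hochberg, threshold 0.05). Each SE is the absolute log2 fold change over the square root of F. Paralog ratios used log2 of counts plus 0.5, where both genes had a median of at least 10 counts, and exact permutation tests (scipy 1.17.1). Alternatives were DESeq2 1.42.0, limma-trend (3.58.1), other scalings and filters, a replicate block and leaving out each library. Scripts were tested on simulated data. Totals of 14114491 to 17073546 counts per library set the counting precision, and a floor of 3 counts applies. Replicate libraries differed beyond sampling noise (chi-square per degree of freedom 9.80 to 91.7), so none was counted as a duplicate. The study's description gives 4 mice per genotype, and the labels give 4 libraries per fraction but do not tie a library to a mouse.

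Deviations from the group means correlated at 0.205 to 0.356 between same-numbered libraries of the 2 fractions and at -0.216 to 0.0396 between others. Same-numbered libraries thus shared variation. The labels do not give its source, which was not tested. The factors and lists were chosen with earlier results of these data known. The genes named were, in each complex, those called with the 4 smallest p-values, every gene called higher, called genes with an absolute log2 fold change of at least 0.5, genes not tested and genes of the ratio pairs, and in other lists the 2 with the smallest p. *Eif2b2*, *Eif2d*, *Eif3h*, *Eif5* and, in the closing section, *Eif3c*, *Eif3m* and *Eef1akmt2* were named after their values were seen.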

Additional observations from a re-analysis of the deposited data

Results flagged for a closer look

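Of 118 groups of 4 libraries (59 factors in 2 fractions), 7 held a library far from the other libraries of its group, which is 5.93%, and chance gives about 1 in 20. In the EpCAM- fraction, replicate 1 was low for *Eef1e1* (111 CPM, others 136 to 140) and *Eif5b* (137 CPM, others 148 to 149), replicate 2 was low for *Eif4g2* (490 CPM, others 605 to 616) and replicate 4 was high for *Eif2d* (82.3 CPM, others 77.9 to 78.6). In the EpCAM+ fraction, replicate 1 was low for *Eif1ax* (170 CPM, others 207 to 212) and *Eif4ebp1* (134 CPM, others 154 to 157), and replicate 4 was high for *Eif6* (317 CPM, others 307 to 309).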

How the results depend on the processing

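The count of factors called lower, 45, was 36 to 46 under the 9 other tests, scalings, filters and block, and 38 to 45 without any 1 library. Scaling mattered most. Upper-quartile scaling and library totals moved the median of all genes from 0.02 to 0.11 on the log2 scale and the split of all calls from 2961 higher and 2818 lower to 3642 and 2083 or 3476 and 2066. The factor median then moved from -0.40 to -0.31 under both, 36 factors were called lower and 4 higher under each, and *Eef2*, *Eef1b2*, *Eef1akmt4*, *Eif1ax*, *Eif4g2*, *Eif5*, *Eif2b2* and *Eif3c* lost their calls under both, *Eif3m* under the first and *Eif4ebp2* under the second, while *Eif4a2* and *Eef1akmt2* gained one. Under upper-quartile scaling and library totals, medians were -0.21 and -0.21 for scanning and joining and -0.40 and -0.40 for eIF3. They were -0.30 and -0.30 for eIF4F, -0.20 and -0.21 for the eIF4E group and -0.46 and -0.46 for the eEF1 group. For eIF2B the median was -0.53 under upper-quartile scaling. The eEF2 group (0.047 and 0.046) and the eEF1A methyltransferases (0.028 and 0.026) changed sign, with 0 genes called lower in each, and 2 of the eIF4E group were lower under library totals. With at least 10 counts in every library the eIF3 median was -0.46.

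Without 1 library at a time, 1 to 3 factors were called higher, 0 to 1 lower in the eEF2 group and 0 to 1 among the methyltransferases. Medians ranged from -0.43 to -0.36 over all factors, -0.56 to -0.43 in eIF3 and -0.43 to -0.33 in eIF4F. They ranged from -0.36 to -0.24 in the eIF4E group and from -0.63 to -0.51 in the eEF1 group. In the eEF2 group the range was -0.087 to 0.0031, where the sign changed without EpCAM- replicate 3. The cause was not tested.

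With the replicate number as a block, calls over all genes went from 5779 to 6818 and factors to 46 lower and 3 higher, with *Eif2d* and *Eif4a2* the changed calls. For ratios the paired differences were the same values, 0.63 (*Eif4a2* to *Eif4a1*), 0.55 (*Eif4g3* to *Eif4g1*), 0.23 (*Eif4g2* to *Eif4g1*), 0.69 (*Eif4e3* to *Eif4e*), 0.30 (*Eif4ebp2* to *Eif4ebp1*), -0.20 (*Eif4ebp1* to *Eif4e*), 1.36 (*Eif5a2* to *Eif5a*) and 0.61 (*Eef2k* to *Eef2*). An exact sign-flip test of 4 pairs cannot go below 0.125, so none passed by construction, and a pseudocount of 2 changed no call. Ratios without 1 library are values only, since 3 against 4 cannot pass.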
